A study of Mus musculus with 21 samples.

Results

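The cytosolic ribosomal protein genes encode the proteins of the ribosome that works in the cytoplasm. They were taken from the table of read counts by symbol: Rpl or Rps followed by 1 or 2 digits and at most one of the letters a, x and l, together with Rplp0, Rplp1, Rplp2 and Rpsa. Of 24421 gene symbols, 81 matched, and 79 had 10 or more counts in total and make up the group described here. Both remaining symbols, Rpl10l and Rpl26, had 0 counts in every library. After the filter on low counts 76 members could be tested, and 74 had a mean of at least 5 CPM, a gene's counts scaled to the total of its library.

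The cytosolic ribosome joins a small subunit, which reads the mRNA, to a large subunit, which forms the peptide bonds, and its proteins are made in matched amounts and assembled with ribosomal RNA in the nucleolus. In most cells their mRNAs are among the most abundant, and they begin with a C followed by a run of pyrimidines, the 5′ terminal oligopyrimidine (TOP) tract, through which the mTORC1 kinase pathway controls their translation. ERK signalling reaches the same machinery in other cell types: it activates the RSK kinases, which phosphorylate the ribosomal protein Rps6, and the MNK kinases, which phosphorylate the cap-binding protein. The liver, which secretes most plasma proteins, depends heavily on this synthesis.

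Liver RNA came from 3 groups of 7 libraries. The ERK1 knockout (ERK1 KO) carried Erk1-/- and floxed Erk2 without Cre. The ERK2 knockout (ERK2 KO, labelled ERt-Alb-Cre-ERK2 Cre+) lost Erk2 in hepatocytes, and the double knockout (double KO) carried Erk1-/-, floxed Erk2 and Cre. Every mouse received 3 mg of tamoxifen once under the skin, and livers were taken 3 weeks later. Tamoxifen activates a Cre whose albumin promoter restricts it to hepatocytes, so other liver cells of the ERK2 KO and double KO keep Erk2. No liver without a knockout was analysed here. Cre was absent from the ERK1 KO, so the effects of Cre and of Erk2 loss cannot be told apart in the comparison of the double KO with the ERK1 KO. The labels do not tie the libraries to separate animals, so each p-value below weighs a difference against library-to-library spread, and that spread may be technical only.

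Total counts ran from 37703680 to 45460470 per library. Mapk3, the gene of ERK1, was at 8.75 to 12.2 CPM in ERK1 KO 3 to ERK1 KO 7, at 5.18 to 8.03 CPM in double KO 1 to double KO 6 and at 32.9 to 39.8 CPM in 5 ERK2 KO libraries. It went against the label in 4 libraries, with 39.9 CPM in ERK1 KO 2, 36.5 in double KO 7, 9.45 in ERK2 KO 5 and 10.9 in ERK2 KO 7. ERK1 KO 1 had Mapk3 at 6.50 CPM, which fits its label, but its albumin mRNA (Alb) was at 4392 CPM against 61837 to 92825 CPM in ERK1 KO 3 to ERK1 KO 7. Results are therefore given both with all 21 libraries and with the 16 left after setting these 5 aside (5 ERK1 KO, 5 ERK2 KO and 6 double KO).

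The TOP tract is the sequence feature that these genes are known to share, so the annotated starts were searched for it. Of the 79 members, 58 had a start in the RefSeq table for GRCm38.p6. A C followed by at least 4 further C or T began at the annotated first base in 13 of the 58 (22.4%), against 3.0% of 10733 tested genes, with the sense strand alone searched. With a tract allowed to begin up to 10 bases either side, 37 of 58 (63.8%) held one against 37.1% of tested genes, and within 25 bases 50 of 58 (86.2%) against 60.8%. The windows below run from 15 bases before to 15 bases from the annotated first base, 5′ to 3′ on the gene's strand, with a tract that begins within 10 bases of it in capitals. They show members named in the text below. First come those with a tract within 10 bases (Rpl12, Rpl38, Rps2, Rps9, Rplp2, Rps6 and Rps27), then those without one there (Rpsa, Rpl41, Rplp0, Rpl13, Rpl10 and Rps4x). A run that begins farther away, as in the Rpl13 window, is left in lower case. A window without capitals says only that these letters do not stand at the annotated start.
Rpl12 (chr2:32961697-32961726, plus strand): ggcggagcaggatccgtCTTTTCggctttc
Rpl38 (chr11:114668565-114668594, plus strand): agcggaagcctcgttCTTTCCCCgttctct
Rps2 (chr17:24720048-24720077, plus strand): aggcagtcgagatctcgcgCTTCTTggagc
Rps9 (chr7:3704026-3704055, plus strand): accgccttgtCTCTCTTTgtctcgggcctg
Rplp2 (chr7:141447636-141447665, plus strand): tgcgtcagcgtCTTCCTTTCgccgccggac
Rps6 (chr4:86857353-86857382, minus strand): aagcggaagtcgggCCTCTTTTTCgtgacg
Rps27 (chr3:90213634-90213663, minus strand): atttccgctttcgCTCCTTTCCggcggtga
Rpsa (chr9:120127751-120127780, plus strand): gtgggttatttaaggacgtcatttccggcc
Rpl41 (chr10:128549154-128549183, minus strand): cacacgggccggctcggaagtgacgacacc
Rplp0 (chr5:115559452-115559481, plus strand): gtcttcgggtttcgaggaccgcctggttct
Rpl13 (chr8:123102335-123102364, plus strand): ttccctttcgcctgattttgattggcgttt
Rpl10 (chrX:74270801-74270830, plus strand): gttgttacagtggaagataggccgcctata
Rps4x (chrX:102189377-102189406, minus strand): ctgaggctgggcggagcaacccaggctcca

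Per kilobase of transcript, the members at 5 CPM or more had a median of 280.2 CPM per kb. The highest levels per kb, as means over the 21 libraries, were those of Rplp1, a protein of the stalk that recruits elongation factors, at 918 CPM per kb, and Rpl41, the smallest ribosomal protein, at 749.7. Next came Rpl10, which joins the large subunit late in assembly, at 675, and the small-subunit proteins Rps2 and Rps18 at 639 and 596. The lowest of the 74 that have a value by this measure was Rps20 at 45.4 CPM per kb, for which the annotated transcript is 3706 bases long. Rps4l, at 19.4 CPM, has no annotated coding transcript and no value per kb.

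Some symbols fell far below this range, 4 of them for standard ribosomal proteins and the others tissue-restricted paralogs. Rpl34 had a mean of 0.854 CPM, Rps27 0.220 CPM and Rpl30 0.139 CPM, and Rpl26, with 0 counts, allows at most 0.066 to 0.0796 CPM by its limit of 3 counts per library. The paralog Rpl3l, known from skeletal and heart muscle, was at 0.154 CPM where its parent Rpl3 had 354.8 ± 62.7 CPM in the double KO (SD, n = 7), and Rpl39l, known from testis, was at 0.0449 CPM. Rpl10l, another testis paralog, was at 0. Unlike these paralogs, Rps27l, the paralog of Rps27, was at 173.7 CPM. The intervals behind these values cover counting error only.

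The 4 symbols at or near 0 that are not tissue-restricted paralogs (Rpl26, Rpl30, Rpl34 and Rps27) shared a feature of the annotation. Near-identical copies, counted as other annotated genes with a transcript at least 95% identical over at least 80% of the member's coding sequence, existed for 72 of the 79 members, with a median of 5 copies and 57 for Rpl21. Rps4l, which has no annotated coding transcript, was not searched and entered the median as 0. For 16 symbols at least one copy had a row of its own in the table. In 4 of the 16 the copy was at 0 in all 21 libraries, and these were Rpl26 with Gm15772 (99.5% identity), Rpl30 with Gm12191 (99.7%), Rpl34 with Rpl34-ps1 (99.4%) and Rps27 with Rps27rt (100%). The other 12 members had a copy above 0 and were at 90.7 CPM or more. No source used here says how reads shared by a gene and its copy were counted, so the level of these 4 genes cannot be read from the table, and all members with a copy carry the same uncertainty. The part of read sharing in their values was not tested. Over the well-detected members with a value per kb (Rps4l has none), the number of copies and the level per kb gave a Spearman correlation of 0.059. This is a description across genes that share libraries.

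**Figure D1:**
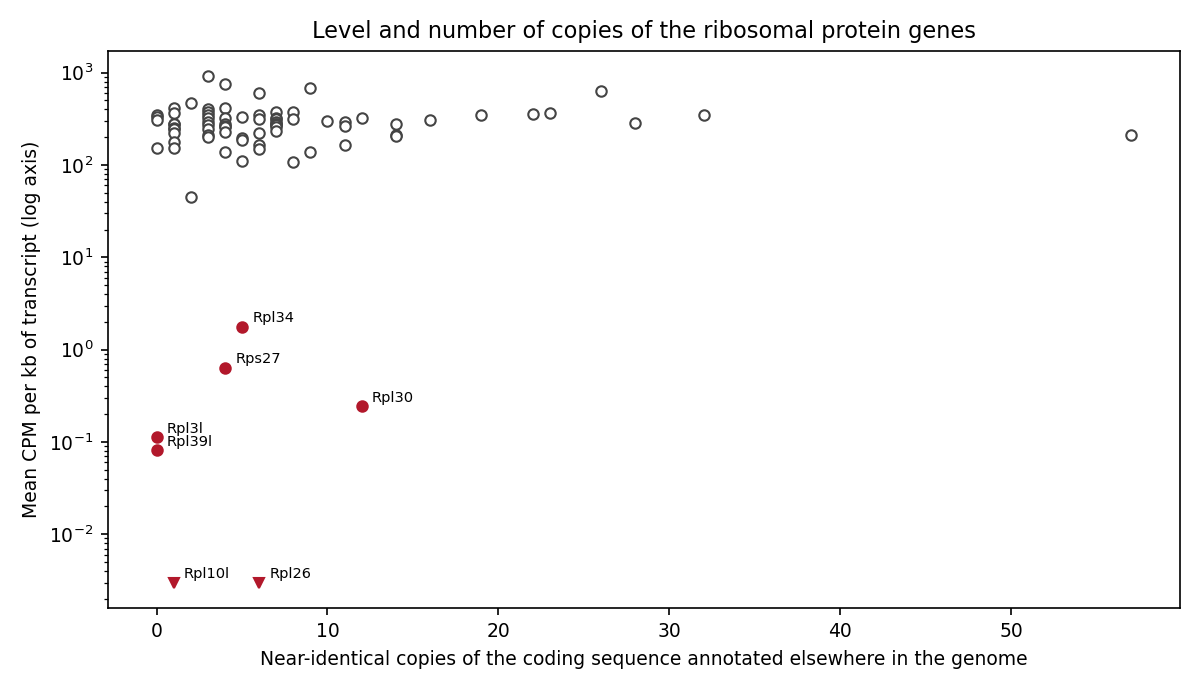
Mean CPM per kb of transcript (log axis) against the number of annotated near-identical copies, 1 point per gene symbol, with symbols under 5 CPM filled in red and symbols at 0 drawn as triangles at the foot. Rpl26, Rpl30, Rpl34 and Rps27 stand far below members with similar or larger numbers of copies, such as Rpl21 with 57.

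As a share of each library, ribosomal protein mRNA was higher in the double KO than in either single knockout. Summed over the 79 members, the 7 ERK1 KO libraries had 13863 to 16634 CPM with a median of 16118, and the ERK2 KO libraries 14452 to 18411 with a median of 15454. The double KO libraries had 17071 to 20945 CPM with a median of 18230. Every double KO library was above every ERK1 KO library, while ERK2 KO 7 overlapped the double KO. Group means were 15917 ± 947, 15808 ± 1245 and 18317 ± 1277 CPM (SD, n = 7 each). In the 16 libraries they were 15875 ± 1154 (n = 5), 15559 ± 309 (n = 5) and 18497 ± 1298 CPM (n = 6), and no double KO library overlapped either single knockout. Both subunits took part: in the 16 libraries the large-subunit sum was 11046 ± 756 CPM in the double KO against 9533 ± 668 in the ERK1 KO and 9408 ± 222 in the ERK2 KO, and the small-subunit sum was 7451 ± 546 against 6342 ± 489 and 6151 ± 123.

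Much of that difference went with the scaling of the libraries, more of it against the ERK2 KO than against the ERK1 KO. The trimmed mean of M values (TMM) scales each library so that the typical gene does not move, and its factors averaged 1.07 in the double KO, 0.994 in the ERK1 KO and 0.946 in the ERK2 KO. On that scale the summed levels were 17180 ± 851, 16037 ± 1104 and 16733 ± 1495 CPM (SD, n = 7 each), and the ranges overlapped. Scaled by library totals alone, the median of all tested genes was itself higher in the double KO, by 0.10 on the log2 scale against the ERK1 KO and by 0.18 against the ERK2 KO. The members' medians on that scale were 0.19 and 0.19. Against the ERK2 KO the list thus moved as the typical gene did, and against the ERK1 KO it stood about 0.09 above it. Fold changes below are from the TMM-scaled fit, while the levels and overlaps printed beside them are CPM unless stated. Groups apart as CPM can overlap on the TMM scale.

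**Figure D2:**
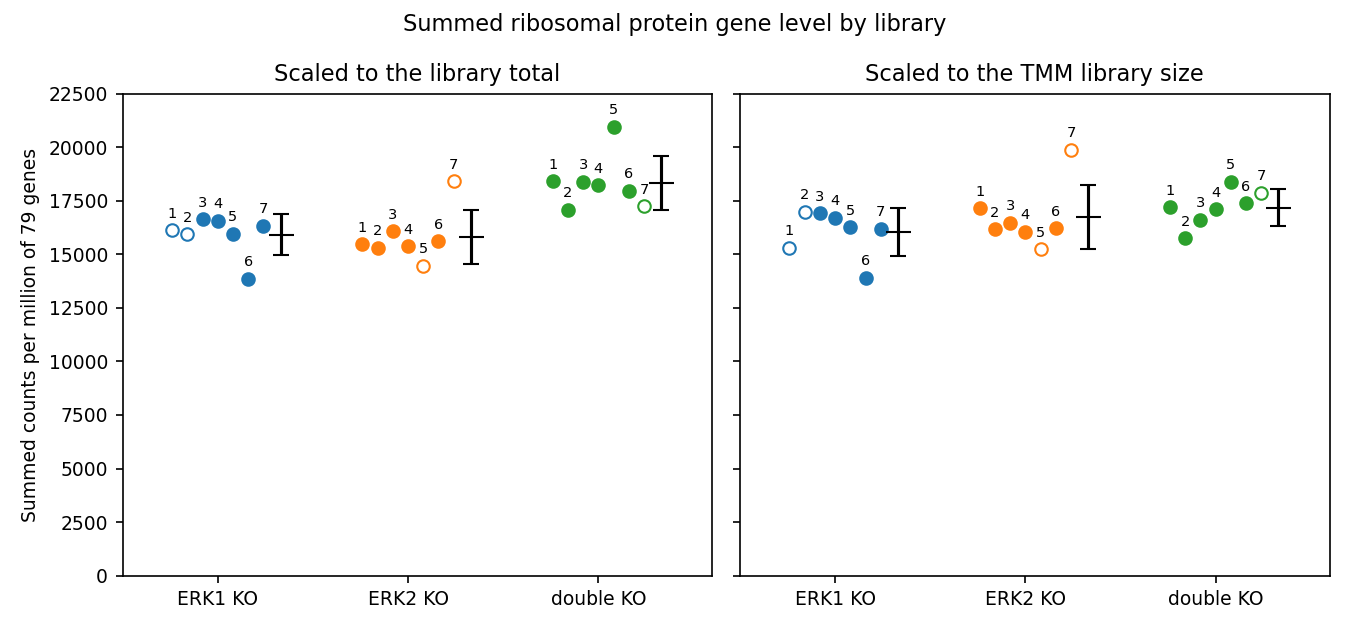
Summed CPM of the 79 genes in each library, scaled to the library total (left) or to the TMM library size (right), with replicate numbers beside the points, open circles for the 5 libraries set aside, and black bars for the mean and SD of 7 libraries. The double KO mean is 18317 on the left and 17180 on the right, where the groups overlap.

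The make-up of the tissue RNA moved with the same groups. Over 8 hepatocyte markers in the 16 libraries, 7 were lower in the double KO than in the ERK1 KO, 7 were lower than in the ERK2 KO and none was higher. Their summed level was 16745 to 21875 CPM in the double KO against 84425 to 117300 in the ERK1 KO and 62535 to 83114 in the ERK2 KO. ERK1 KO 1 was set aside for its low Alb, which is among these markers, so the gap to the ERK1 KO partly follows from that choice. Of 8 Kupffer cell and macrophage markers, 4 were higher than in the ERK1 KO and 8 higher than in the ERK2 KO, with sums of 700.2 to 2396 CPM in the double KO, 236 to 899 in the ERK1 KO and 191 to 644 in the ERK2 KO. Of 6 stellate cell markers 5 and 6 were higher (sums of 314.5 to 718, 192 to 293 and 147 to 209 CPM), and of 5 cholangiocyte markers 2 and 4 (117.5 to 671, 38.3 to 60.5 and 24.9 to 36.2 CPM). Endothelial markers, 6 in all, had 3 lower than in the ERK1 KO and 1 higher with 2 lower than in the ERK2 KO. Of 3 tested neutrophil markers 2 were higher than in the ERK1 KO and 3 higher than in the ERK2 KO, with medians of 1.79 and 2.69 on the log2 scale and sums of 8.68 to 17.8 CPM in the double KO, 0.943 to 9.61 in the ERK1 KO and 0.331 to 2.46 in the ERK2 KO. Of 6 tested lymphocyte markers 1 was higher than in the ERK2 KO and none passed against the ERK1 KO, with sums of at most 12.3 CPM. With all 21 libraries fewer markers passed against the ERK1 KO: 5 hepatocyte and 3 endothelial markers were lower, 1 each of the Kupffer, stellate and cholangiocyte markers was higher and no neutrophil marker was. Against the ERK2 KO, all 8 hepatocyte markers and 2 endothelial ones were lower, and 8 Kupffer, 6 stellate, 4 cholangiocyte and 3 neutrophil markers were higher. The hepatocyte sums with all 21 libraries were 16745 to 57084 CPM in the double KO, 20572 to 117300 in the ERK1 KO and 62535 to 106387 in the ERK2 KO. The double KO then overlapped the ERK1 KO. No marker with a row was at 0 in any library. In bulk tissue, fewer cells of a type and less RNA per cell cannot be told apart, and the part of cell make-up in the ribosomal protein values was not tested.

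Against the ERK1 KO, few members passed the test, and those that passed were nearly all higher in the double KO. With all 21 libraries 4 of 76 rose (Rpl12, Rpl13, Rpl10a and Rplp0) and none fell, where 12.2% of the 14154 tested genes rose and 11.8% fell. With 16 libraries 12 rose and 1 fell, where 22.9% of 14261 genes rose and 23.0% fell. The share of members called was thus below that of all genes in both directions. A count of calls is not a count of changes, as a small difference can miss the threshold. By the same edgeR test, 17 of the 76 members with 21 libraries and 20 with 16 had an unadjusted p under 0.05. Over all tested genes 5647 and 7568 did. The changes were small and mostly of one sign: the median log2 fold change was 0.09 with 21 libraries and 0.10 with 16, beside 0.00 and 0.005 over all tested genes, and 66 and 62 of the 76 values were above 0. Without ERK1 KO 6 the median in the 16 libraries was 0.03, and 3 members rose and 2 fell. All 4 members called with 21 libraries were among the 13 called with 16.

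Rpl12, which binds at the base of the stalk, lay at 166 to 204 CPM in the ERK1 KO (median 198) and at 223 to 276 CPM in the double KO (median 251). The groups did not overlap, and the log2 fold change was 0.28 ± 0.08 (SE, edgeR adjusted p = 0.0224), or 0.24 ± 0.08 with 16 libraries (adjusted p = 0.0166), where it was 0.17 (adjusted p = 0.0604) without ERK1 KO 6. Rpl13, a large-subunit protein, ran from 230.5 to 283.5 CPM in the ERK1 KO (median 270.2) and from 295 to 385 CPM in the double KO (median 338). Its groups did not overlap either, and it rose by 0.24 ± 0.07 (adjusted p = 0.0211), or 0.24 ± 0.07 in 16 libraries (adjusted p = 0.0127). Rplp0, the scaffold of the stalk, was at 419 to 504 CPM in the ERK1 KO (median 486) and at 502.7 to 695 CPM in the double KO (median 588). It overlapped only where ERK1 KO 1 and double KO 7 met, and rose by 0.20 ± 0.07 (adjusted p = 0.0463, a call lost in 13 of 21 fits that left out a library), or 0.23 ± 0.07 with 16 libraries (adjusted p = 0.0134, and 0.0532 without ERK1 KO 6). Rpl10a, whose homolog frames the exit site for spent tRNA, had 138 to 179 CPM in the ERK1 KO and 176 to 266 CPM in the double KO, and rose by 0.23 ± 0.08 (adjusted p = 0.0360). Leaving out 1 library ended the Rpl10a call in 6 of 21 fits, and in 13 of 16 fits with the 16 libraries (0.24 ± 0.09, adjusted p = 0.0441), with adjusted p up to 0.148.

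Among members at 5 CPM or more, Rpl41 showed the largest rise over the ERK1 KO in the 16 libraries. Its levels were 234 to 314.5 CPM in those 5 ERK1 KO libraries (median 297) and 326 to 462 CPM in the 6 double KO libraries (median 411). The groups did not overlap as CPM, but on the TMM scale they did (320 in ERK1 KO 3, 300.8 in double KO 2). Rpl41 rose by 0.41 ± 0.10 (edgeR adjusted p = 0.00448). With 21 libraries, where ERK1 KO 1 reached 367 CPM, the value was 0.28 ± 0.10 (adjusted p = 0.0548). Among small-subunit proteins, Rps9 had 233 to 286 CPM in the ERK1 KO and 312 to 443 CPM in the double KO of the 16 libraries and rose by 0.27 ± 0.09 (adjusted p = 0.0178, and 0.0648 without ERK1 KO 6), beside 0.20 ± 0.08 with 21 libraries (adjusted p = 0.0909). Rps14 had 228 to 249.9 against 278 to 377 CPM and rose by 0.25 ± 0.07 (edgeR adjusted p = 0.0125), beside 0.20 ± 0.08 with 21 (adjusted p = 0.076). On the TMM scale its ranges overlapped (254.2 in ERK1 KO 3, 251.2 in double KO 3). Rpl38, which is known for its part in translating developmental regulators, rose by 0.28 ± 0.11 (adjusted p = 0.0455), a call that 12 of 16 fits leaving out a library did not keep (adjusted p up to 0.148), beside 0.30 ± 0.11 with 21 libraries (adjusted p = 0.0519). The remaining members that rose in the 16 libraries were Rpl9, Rpl19, Rps7 and Rps24, by 0.21 to 0.24, and none of these passed with 21.

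Against the ERK2 KO, members passed the test in both directions about a median near 0. With 21 libraries 5 of 76 rose and 2 fell, where 24.3% of tested genes rose and 20.3% fell, and with 16 libraries 11 rose and 3 fell, where 26.1% rose and 25.1% fell. The median log2 fold change was 0.02 with 21 libraries and -0.004 with 16, beside 0.01 and 0.002 over all genes, and 40 and 36 of 76 values were above 0. All 7 members called with 21 libraries were among the 14 called with 16. This comparison shares its double KO libraries with the previous one, so the members called in both are not independent repeats.

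Rpsa and Rps2, both small-subunit proteins, showed the largest rises over the ERK2 KO in the 16 libraries. With all 21 neither passed, and Rpl41, at 0.31, was the highest. Against the ERK1 KO neither Rpsa nor Rps2 passed, with 16 or with 21 libraries. For Rpsa and Rps2 the ERK2 KO was the lowest group, with means of 354 and 494.8 CPM in the 16 libraries. The ERK1 KO means were 479.7 and 647.8 CPM, and those of the double KO 560.2 and 751.7 CPM. Rpsa, which also occurs at the cell surface as a laminin receptor, was at 324 to 585 CPM in the 7 ERK2 KO libraries (median 340.3) and at 499 to 649.8 CPM in the double KO (median 548). The 5 ERK2 KO libraries whose Mapk3 level fitted the label lay between 324 and 437 CPM, below every double KO library. ERK2 KO 5 was at 453.3 CPM and ERK2 KO 7 at 585. ERK1 KO 2, whose Mapk3 level also went against its label, was the lowest of its group at 373.9 CPM. Double KO 7, against its label as well, was at 532.3 CPM, inside the range of its group. The log2 fold change was 0.46 ± 0.09 in the 16 libraries (adjusted p = 0.000688) and 0.29 ± 0.12 in all 21 (adjusted p = 0.0534). Rps2, which lines the mRNA entry channel, was at 444 to 569.7 CPM in those 5 ERK2 KO libraries (median 496) and at 673 to 828 CPM in 6 double KO libraries (median 759). On the TMM scale these ranges overlapped (595.1 in ERK2 KO 4, 590.3 in double KO 5). Rps2 rose by 0.40 ± 0.09 (edgeR adjusted p = 0.0012). With all 21 libraries, in which ERK2 KO 7 reached 729 CPM, the value was 0.24 ± 0.11 (adjusted p = 0.0747). Both calls in the 16 libraries held in all 26 alternatives, among them each fit that left out a library. The 26 include a repeat of the main fit and a repeat of the fit without ERK1 KO 6.

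The 4 proteins of the stalk and its base, grouped here after their values were seen, each rose over the ERK2 KO in the 16 libraries. Rpl12 rose by 0.34 ± 0.08 (adjusted p = 0.00194), from 155 to 183.5 CPM in the ERK2 KO to 223 to 276 CPM in the double KO. Rplp0 rose by 0.21 ± 0.07 (adjusted p = 0.0195), Rplp1 by 0.25 ± 0.09 (adjusted p = 0.0254) and Rplp2 by 0.27 ± 0.10 (adjusted p = 0.0412). Rplp1 lay at 346.5 to 426.5 CPM in the ERK2 KO and at 518 to 560.3 CPM in the double KO, with no overlap, and Rplp2 at 88.5 to 115.2 against 114.7 to 160.2 CPM, which touch. With 21 libraries Rpl12 (0.27 ± 0.08, adjusted p = 0.0137), Rplp2 (0.25 ± 0.09, adjusted p = 0.0316) and Rplp0 (0.18 ± 0.07, adjusted p = 0.0476) passed and Rplp1 did not (0.20 ± 0.09, adjusted p = 0.0834). Leaving out 1 of the 21 libraries ended the Rplp0 call in 16 fits and the Rplp2 call in 8, and leaving out 1 of the 16 ended them in 5 and 11, with adjusted p up to 0.119. Rpl12 kept its call in all 31 alternatives with 21 libraries and all 26 with 16, counts that include repeats of the same fit. Rpl41 rose by 0.31 ± 0.10 with 21 libraries (adjusted p = 0.022, and 0.0612 without ERK2 KO 5) and by 0.28 ± 0.10 with 16 (adjusted p = 0.035), the latter lost in 11 of 16 fits that left out a library. Rpl13 rose by 0.18 ± 0.07 with 21 libraries (adjusted p = 0.038, lost in 14 of 21 such fits) and by 0.23 ± 0.07 with 16 (adjusted p = 0.0143, lost without ERK2 KO 2 or ERK2 KO 6). Rpl38 was at 71.6 to 94.6 CPM in the ERK2 KO and 101 to 146 CPM in the double KO, ranges that overlapped on the TMM scale (101.5 in ERK2 KO 1, 93.2 in double KO 2). It rose by 0.28 ± 0.11 in the 16 libraries (edgeR adjusted p = 0.042, lost in 12 of 16 such fits), beside 0.26 ± 0.11 with 21 (adjusted p = 0.0548). The other members that rose there were Rpl32 and Rps7, and neither passed with 21 libraries.

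Rpl10, Rps4x and Rpl35a were lower in the double KO than in the ERK2 KO on the TMM scale. Of these only Rpl10 also passed against the ERK1 KO, and only with 16 libraries. Rpl10 was at 521 to 544 CPM in the 5 matching ERK2 KO libraries (median 525) and at 479 to 583.5 CPM in the double KO (median 518), ranges that overlap as CPM. Scaled by TMM it fell by 0.23 ± 0.06 against the ERK2 KO (adjusted p = 0.00662) and by 0.24 ± 0.06 against the ERK1 KO (adjusted p = 0.00652) in the 16 libraries, and by 0.25 ± 0.08 against the ERK2 KO in all 21 (adjusted p = 0.0209). Against the ERK1 KO in all 21, Rpl10 was at -0.18 and did not pass. Rps4x, the small-subunit protein encoded, like Rpl10, on the X chromosome, was at 246 to 268 CPM in the ERK2 KO and 219 to 325 CPM in the double KO. It fell by 0.24 ± 0.09 against the ERK2 KO (adjusted p = 0.0337), with 0.21 ± 0.08 in all 21 libraries (adjusted p = 0.0424). Leaving out 1 library ended the Rps4x call in 3 of 16 and 8 of 21 fits. Rpl35a, a large-subunit protein, was at 133 to 157 CPM in the ERK2 KO and 114.5 to 161 CPM in the double KO. It fell by 0.29 ± 0.10 against the ERK2 KO (adjusted p = 0.0184), beside -0.20 ± 0.10 with 21 libraries (adjusted p = 0.0999). Scaled by library totals, none of these calls held in the 16 libraries: against the ERK2 KO, Rpl10 was at -0.03 (adjusted p = 0.76), Rps4x at -0.03 (adjusted p = 0.816) and Rpl35a at -0.09 (adjusted p = 0.457). The 25 rises recomputed on that scale kept their direction and their call (Rplp1, Rpl9, Rpl19, Rpl32, Rps7 and Rps24 were not among them). That scale lifts the typical gene in the double KO, so it favours rises and works against falls. It is therefore no check of the rises.

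**Figure D3:**
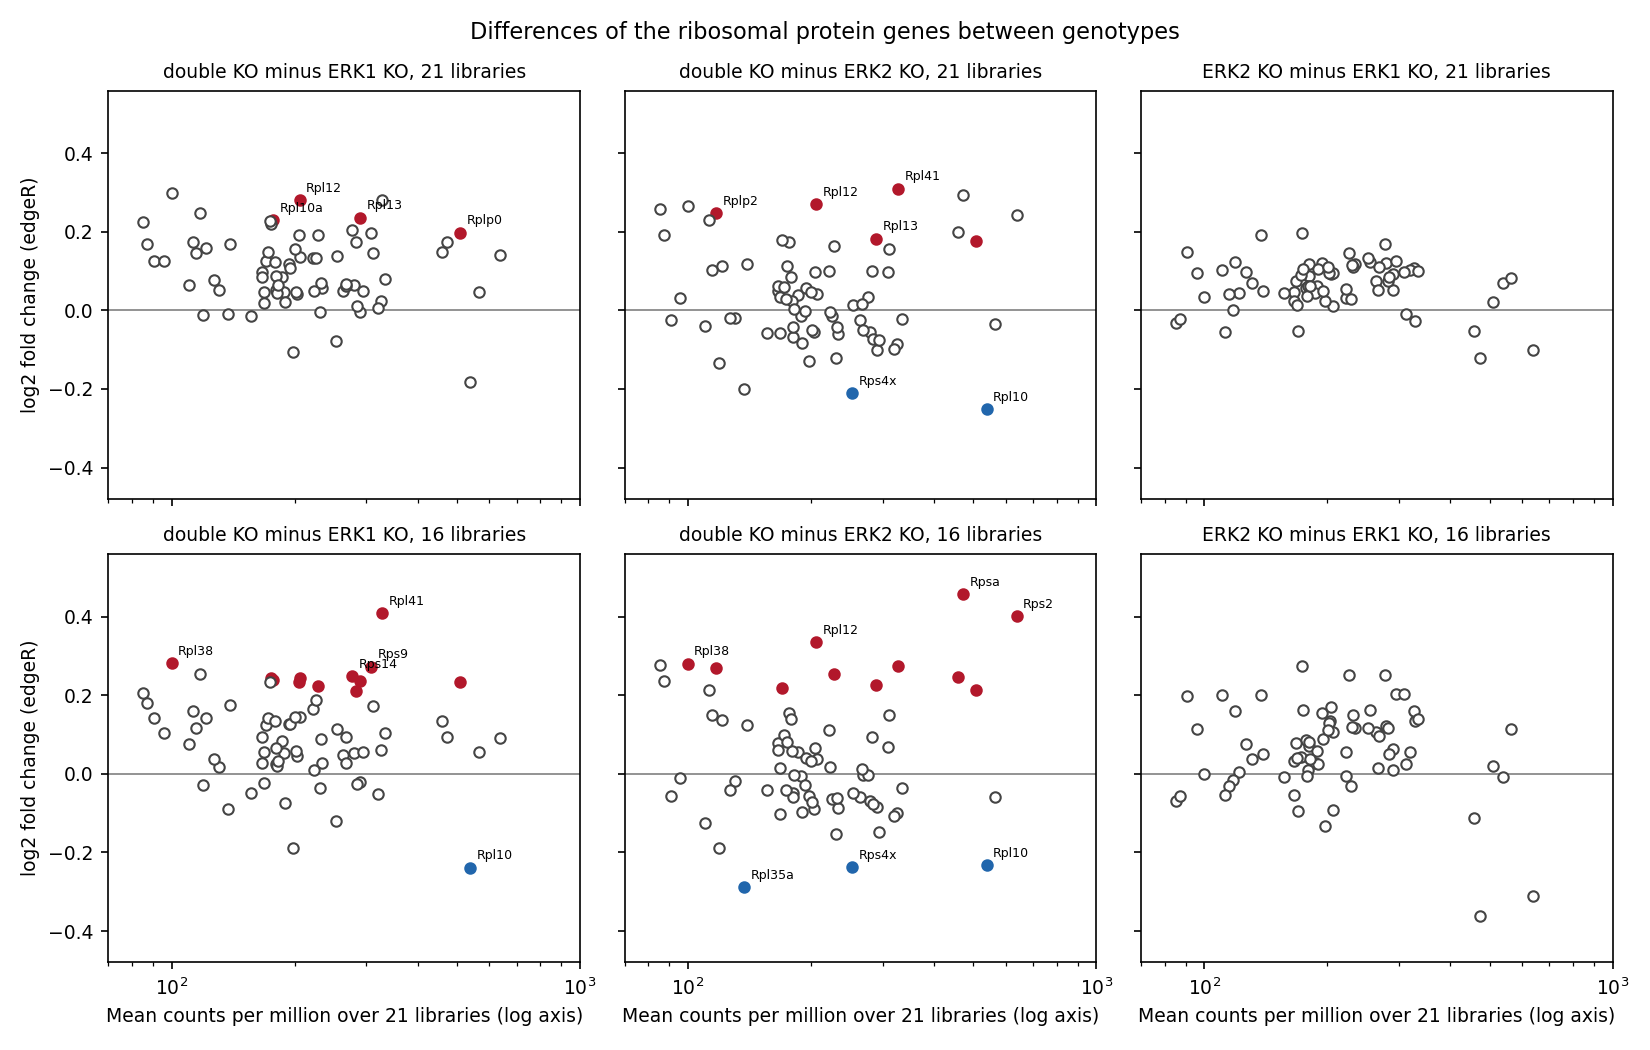
Log2 fold change of each tested member (edgeR, TMM scale) against its mean CPM over 21 libraries (log axis), by comparison (columns) and library set (rows), with members at an adjusted p under 0.05 filled in red (higher) or blue (lower) and those named by rule labelled. Rpl34, Rps27 and Rps4l lie below the CPM axis and are not drawn. Most values lie within 0.2 of 0, with Rpsa and Rps2 the highest against the ERK2 KO in 16 libraries.

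**Figure D4:**
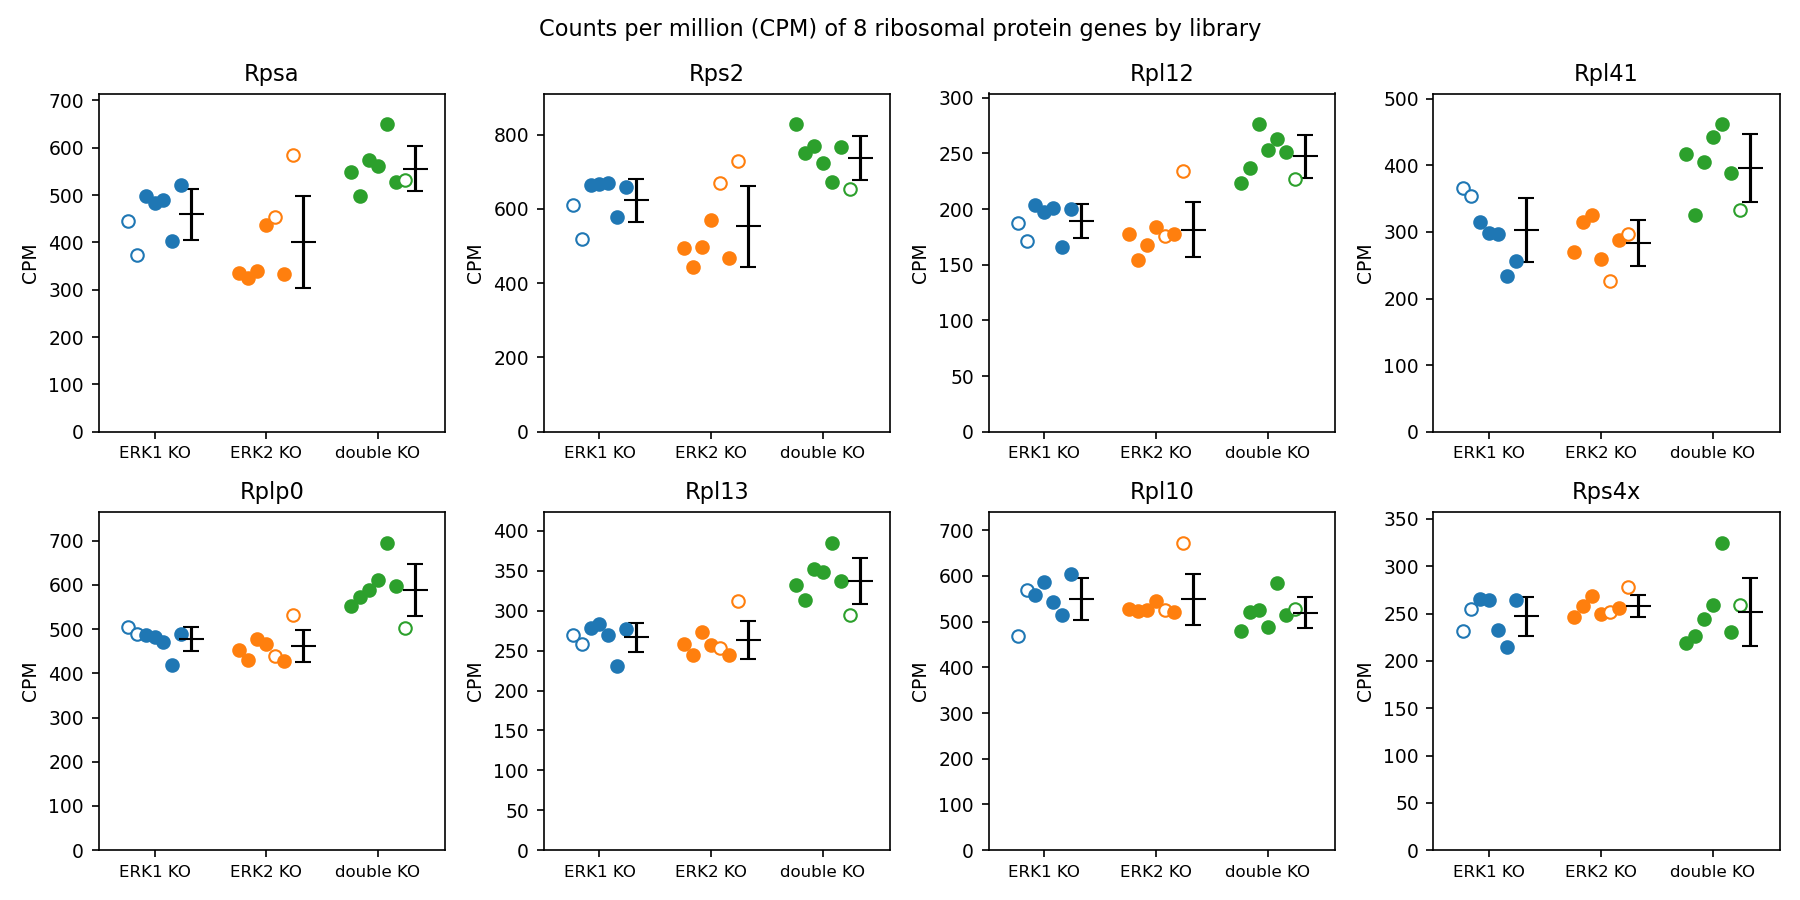
CPM of 8 members in each library, by group, with open circles for the 5 libraries set aside and black bars for the mean and SD of 7 libraries. In Rpsa and Rps2 the open ERK2 KO points lie above all the filled ones of that group, and in Rpl10 and Rps4x the groups overlap.

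Between the single knockouts no member passed the edgeR test. The count was 0 of 76 in 21 libraries, where 0.00707% of tested genes passed, and 0 of 76 in 16 libraries, where 0.722% passed, while 1 and 11 members had an unadjusted p under 0.05. DESeq2 called 3 members in the 16 libraries and 0 in all 21, and limma called 0 in both. The median log2 fold change of the ERK2 KO over the ERK1 KO was 0.08 in 21 libraries and 0.06 in 16, beside -0.01 and -0.005 over all genes, with 67 and 58 of 76 values above 0. The smallest p in the 16 libraries was that of Rpsa, at 354 ± 47.0 CPM in the ERK2 KO and 479.7 ± 44.7 CPM in the ERK1 KO (SD, n = 5 each), a log2 fold change of -0.36 ± 0.10 (edgeR adjusted p = 0.0793). Rps2 was at -0.31 ± 0.09 (adjusted p = 0.102). With all 21 libraries the smallest p was that of Rps27l, a paralog of Rps27 induced by p53, at 0.20 ± 0.09 (adjusted p = 0.509).

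Unlike Rpsa, several other members with known roles beyond the ribosome passed the test in neither comparison with the double KO, with 16 or with 21 libraries. Rps6, the substrate of the S6 and RSK kinases, had a log2 fold change of -0.03 ± 0.08 against the ERK1 KO (edgeR adjusted p = 0.738) and -0.15 ± 0.08 against the ERK2 KO (adjusted p = 0.106) in the 16 libraries. Rpl5 and Rpl11, which bind the p53 regulator Mdm2 when ribosome assembly fails, were at 0.19 ± 0.08 (adjusted p = 0.0726) and 0.05 ± 0.08 (adjusted p = 0.629) against the ERK1 KO and at -0.06 ± 0.08 for both against the ERK2 KO. Rps27a, made as a fusion with ubiquitin, was at 0.14 ± 0.08 and 0.03 ± 0.08, and Rpl13a, a subunit of an interferon-induced inhibitor of translation, at 0.11 ± 0.12 and -0.05 ± 0.12. Rps15a, the member nearest to Mapk3 (chromosome 7, 8.66 Mb away), was at 0.10 ± 0.07 and -0.01 ± 0.07. Of the expressed paralogs, Rps27l was at 0.23 ± 0.10 (adjusted p = 0.0647) and -0.04 ± 0.10, and Rpl39, the parent of Rpl39l, at 0.21 ± 0.12 and 0.28 ± 0.12 (adjusted p = 0.0582). With 21 libraries these 8 genes lay between -0.005 and 0.23 against the ERK1 KO and between -0.12 and 0.26 against the ERK2 KO. Not passing the threshold does not show that these genes were equal between groups.

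Ribosomal genes that the symbol rule leaves out also changed in both directions. In the 16 libraries Rpl22l1, a paralog of Rpl22, rose by 0.37 ± 0.14 against the ERK1 KO (adjusted p = 0.0362) and by 0.49 ± 0.14 against the ERK2 KO (adjusted p = 0.00695), with 42.7 ± 8.86 CPM in the double KO against 30.3 ± 2.45 and 26.3 ± 3.78. Rpl36al, a paralog of Rpl36a, fell by 0.25 ± 0.08 (adjusted p = 0.0244) and by 0.36 ± 0.08 (adjusted p = 0.00234). Fau, made as a fusion with a ubiquitin-like protein, rose by 0.28 ± 0.10 against the ERK1 KO (adjusted p = 0.0305), and Rpl7l1 fell by 0.33 ± 0.10 against the ERK2 KO (adjusted p = 0.0158). Of the 7 genes, 2 rose and 1 fell against the ERK1 KO and 1 rose and 3 fell against the ERK2 KO. With 21 libraries Rpl22l1 rose in both comparisons (by 0.34 and 0.46), Rpl36al fell against the ERK2 KO (by 0.28 on the log2 scale), and no other of the 7 passed.

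Other genes of ribosome production and translation control were counted in the same fits, with lists chosen for their roles. Values are from the 16 libraries, and the counts with all 21 follow each list. Of 77 mitochondrial ribosomal proteins, 23 rose and 2 fell against the ERK1 KO (median 0.12) and 9 rose and 5 fell against the ERK2 KO (median 0.002), and with 21 libraries 19 rose and 0 fell, and 14 rose and 2 fell. Of 32 ribosome biogenesis factors, 8 rose and 1 fell (median 0.19), and 8 rose and 2 fell (median 0.18), beside 4 and 0, and 8 and 1, with 21. Nhp2, which binds the RNAs that guide pseudouridylation of ribosomal RNA, rose from 24.5 to 49.6 CPM against the ERK1 KO (0.90 ± 0.09, adjusted p = 1.36e-06), and Rrp12, which helps export the subunits, rose from 10.04 to 19.7 CPM (0.84 ± 0.22, adjusted p = 0.00582), the latter at 0.65 with 21 libraries (adjusted p = 0.0501). The largest rise of a called ribosomal protein gene in that comparison was the 0.41 of Rpl41.

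Among 25 translation initiation factors, 8 rose and 2 fell against the ERK1 KO and 3 rose and 5 fell against the ERK2 KO, beside 5 and 1, and 3 and 3, with 21 libraries. Eif6, which keeps the large subunit from joining before it is mature, rose by 1.18 ± 0.13 (adjusted p = 2.92e-06) and by 1.16 ± 0.13 (adjusted p = 2.83e-06), to 139 CPM from 56.2 and 54.2. Of 16 elongation factors and other TOP mRNA genes, 1 rose and 2 fell against the ERK1 KO, and 1 rose and 7 fell against the ERK2 KO, with medians of -0.01 and -0.18, beside 0 and 1, and 1 and 6, with 21. Eif4b fell by 0.33 ± 0.08 (adjusted p = 0.00294) and by 0.66 ± 0.08 (adjusted p = 6.25e-06), and Nap1l1 rose by 0.92 ± 0.10 (adjusted p = 2.76e-06) and by 0.63 ± 0.10 (adjusted p = 8.87e-05), with 0.51 against the ERK1 KO in 21 libraries (adjusted p = 0.0603).

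In the mTORC1 pathway list of 15 genes, 2 rose and 6 fell against the ERK1 KO and 1 rose and 6 fell against the ERK2 KO, beside 2 and 5, and 1 and 6, with 21 libraries. Pdcd4, an inhibitor of translation that S6 kinase marks for degradation, was the largest change, with a mean of 32.8 CPM in the double KO against 119.7 in the ERK1 KO (-1.99 ± 0.12, adjusted p = 8.69e-09) and 107.8 in the ERK2 KO (-1.92 ± 0.12, adjusted p = 1.16e-08). Of 7 RSK and MNK kinases 3 rose in each comparison and none fell, whereas with 21 libraries none passed against the ERK1 KO and 3 rose against the ERK2 KO. Mknk2, which encodes a MNK kinase, rose by 0.93 ± 0.19 (adjusted p = 0.00103) and 0.98 ± 0.19 (adjusted p = 0.000521), and with 21 libraries its value against the ERK1 KO was 0.56 ± 0.25 (adjusted p = 0.0956). Of 8 genes of the MYC family and its partners 1 rose and 2 fell in each comparison, beside 1 and 0, and 1 and 1, with 21 libraries. Myc, a transcription factor known to drive ribosomal genes, rose by 1.81 ± 0.31 (adjusted p = 0.000218) and 2.04 ± 0.31 (adjusted p = 7.11e-05). Of 12 genes of RNA polymerase I, which transcribes ribosomal RNA, 1 rose and 2 fell against the ERK1 KO, and 2 rose and 2 fell against the ERK2 KO, beside 0 and 0, and 2 and 1, with 21. All these counts share the background shares given above, and the cell make-up values stand beside them as well.

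Within a group, the ribosomal protein genes varied less than most genes and moved together from library to library. The median SD within groups of log2 TMM-scaled CPM was 0.14 over the 74 members and 0.22 over 9826 tested genes at 5 CPM or more, and 69 of the 74 members lay below the latter. Genes of matched level were not compared. Over the 21 libraries the median correlation between members, after taking out the group means, was 0.59, a description across genes that share the same libraries. No such value was computed for other genes, so neither trait is shown to be particular to the members. Some libraries stood at the extremes. On the TMM scale ERK1 KO 6 was the lowest of all 21 libraries for 47 of the 74 members and ERK2 KO 7 the highest for 46. As CPM, ERK1 KO 6 was the lowest for 33 members, and double KO 5 was the highest for 52 and ERK2 KO 7 for 6. The median correlation was 0.39 without both ERK1 KO 6 and ERK2 KO 7, and 0.56 in the 16 libraries, which keep ERK1 KO 6.

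In ERK1 KO 6 the members lay 0.24 (log2) below the group median at the median gene, where mitochondrial ribosomal proteins lay at -0.10 and other genes under 1 kb at -0.05. In ERK2 KO 7 the members lay 0.26 above it, the mitochondrial ribosomal proteins 0.03 and other short genes 0.08 above. Both libraries bear on the counts of calls. Without ERK1 KO 6, 3 members rose and 2 fell against the ERK1 KO in the 16 libraries, in place of 12 and 1, and the median log2 fold change was 0.03. Without ERK2 KO 7, 12 members rose and 1 fell against the ERK2 KO among the remaining 20 libraries, in place of 5 and 2.

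**Figure D5:**
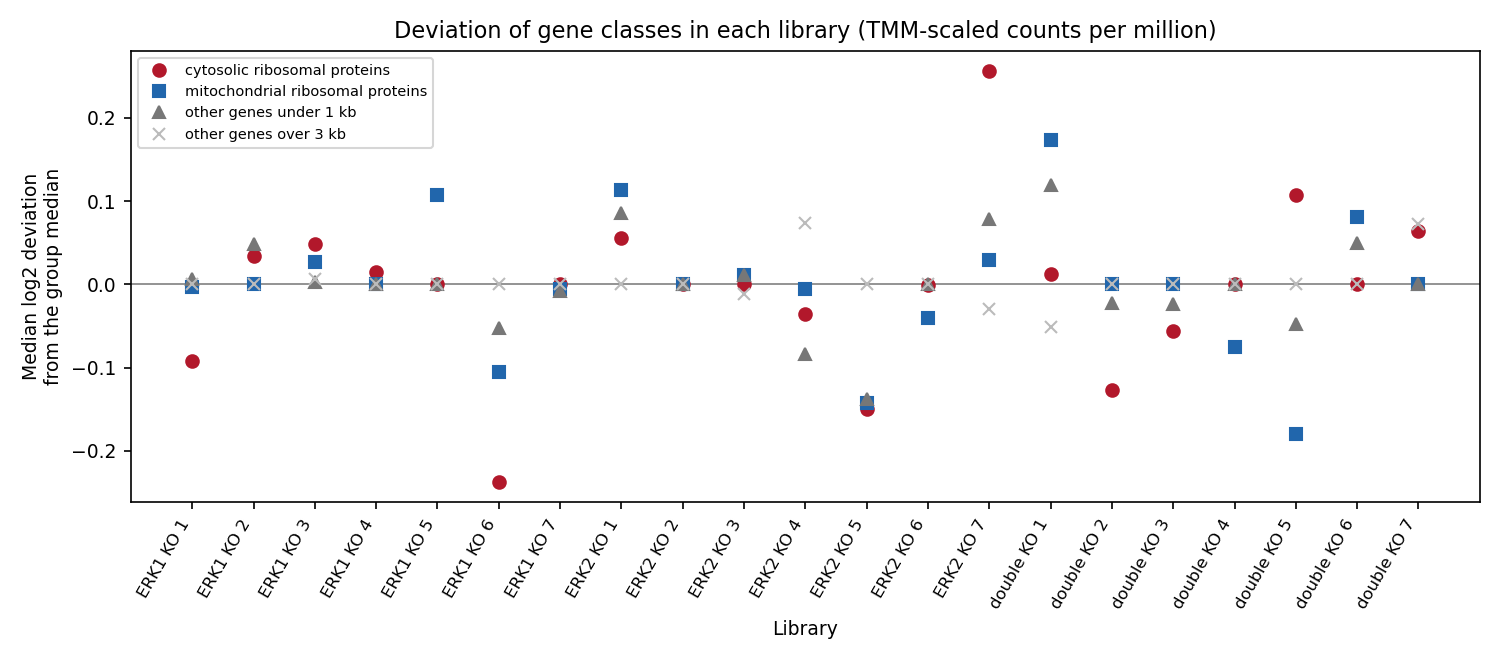
Median log2 deviation from the group median in each library, for the ribosomal protein genes, the mitochondrial ribosomal proteins and other genes under 1 kb or over 3 kb, from TMM-scaled CPM. The ribosomal protein genes are at -0.24 in ERK1 KO 6 and at 0.26 in ERK2 KO 7, farther from 0 than the other classes there.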

How the data were processed

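The authors deposited read counts (whole numbers, not normalised, 1 row per gene symbol) for 21 liver libraries. Per the labels the kit was NEBNext Ultra, with both mRNA and total RNA named as the material. The submitters' processing notes list STAR and HTSeq among other tools, without versions, and the mouse build GRCm38 (mm10). The annotation, the strand setting and the handling of reads with several matches were not stated in those notes. Depth was 37703680 to 45460470 counts per library. Within groups, all 63 pairs of libraries differed beyond sampling noise.

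CPM are counts scaled to a library's total. All genes were tested in 1 fit over the 3 groups with edgeR 4.0.16 in R 4.3.3 (filterByExpr, TMM, quasi-likelihood F test, Benjamini-Hochberg over all tested genes, called at an adjusted p under 0.05), for 21 and for 16 libraries; the scripts were tested on simulated data. limma 3.58.1 and DESeq2 1.42.0 were alternatives. Standard errors are the log2 fold change divided by the root of F. Transcript lengths came from GENCODE, copies from BLAST+ 2.17.0, starts and positions from RefSeq (GRCm38.p6). The members, lists and libraries set aside were chosen with earlier results of these data known. Named are, per comparison, up to 4 called members with the largest rise and 4 with the largest fall at 5 CPM or more (or the smallest p), the 5 highest and lowest per kb, paralogs with their parents, members with other roles, and the 2 called genes of each list with the largest change (not all are printed); the remaining members called were named after their values were seen. One check of the labels is not reported here.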

Additional observations from a re-analysis of the deposited data

Results flagged for a closer look

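The summed member level and 15 members named in the comparisons were checked in each group of 7 libraries, 48 checks in all. In 12 of them the lowest or highest library lay farther from the next than the 95% limit of Dixon's gap test allows. Chance gives about 1 in 20, and the values share libraries.

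The summed level had such a library in all 3 groups. It was 13863 CPM in ERK1 KO 6 (next 15927), 18411 CPM in ERK2 KO 7 (next 16072) and 20945 CPM in double KO 5 (next 18406).

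ERK2 KO 7 stood apart from above for Rpl12 (233.9 CPM, next 183.5) and Rpl10 (672.5 CPM, next 544.4). Double KO 5 did so for Rpl10a (266 CPM, next 212.2), Rps4x (324.9 CPM, next 259.6) and Rps14 (377.3 CPM, next 320). ERK1 KO 6 stood apart from below for Rplp0 (418.6 CPM, next 470.9), and ERK2 KO 5 for Rps27l (130.9 CPM, next 166.9) and Rps9 (247.5 CPM, next 283.1). ERK1 KO 2 stood apart from above for Rps14 (298.7 CPM, next 251.1).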

How the results depend on the processing

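No paired analysis was possible because the numbers of the libraries were given here by accession order and tie no library to another. Of the 861 alternative results of called members, 687 kept the direction and the call, 174 kept the direction and lost the call, and 0 reversed. These counts hold some results that are not new fits. For a called member the wider list repeats the main fit and could only keep the call. In the 16 libraries, leaving out both ERK1 KO 6 and ERK2 KO 7 is the same fit as leaving out ERK1 KO 6. Scaled by library size alone, the members called went from 4 to 30 (double KO against ERK1 KO, 21 libraries), from 7 to 39 (against ERK2 KO), from 13 to 41 and from 14 to 42 in the 16 libraries, all higher, and from 0 to 2 (ERK2 KO against ERK1 KO, 16 libraries); the medians moved to 0.189 against the ERK2 KO with 21 libraries and to 0.221 and 0.202 against the ERK1 KO and the ERK2 KO with 16, with those of all genes at 0.182, 0.131 and 0.206. The calls over all tested genes moved as well. With 21 libraries, library size alone called 3837 genes against the ERK1 KO and 6744 against the ERK2 KO. The main fit called 3402 and 6312 of 14154. The DESeq2 test called 11 members (ERK1 KO, 21 libraries, beside 4231 of all genes) and 3 (ERK2 KO against ERK1 KO, 16 libraries). Fitting only the compared groups left 1 member (ERK1 KO, 21 libraries, beside 1520 of all genes) and 8 (16 libraries). Without the filter on low counts 4 members were called against the ERK2 KO with 21, beside 6361 of all genes. Without both ERK1 KO 6 and ERK2 KO 7, a choice made after seeing the data, 2 and 13 members were called against the ERK1 KO and the ERK2 KO with 21 libraries and 5 against the ERK1 KO with 16. The wider list, with 7 more ribosomal genes, summed to 17287 CPM in the ERK1 KO, 17220 in the ERK2 KO and 19868 in the double KO. The TOP tract count of 13 became 37 within 10 bases and 50 within 25, the latter window chosen after seeing the data. The cause of these shifts was not tested.

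Leaving out 1 library at a time gave 2 to 10 members called against the ERK1 KO with 21 libraries (2 without any 1 of ERK1 KO 4, 5 and 6 and double KO 4, 5 and 6; 10 without ERK1 KO 1; 7 without ERK2 KO 7, double KO 2 or double KO 7), and 5 to 16 with 16 libraries (5 without ERK1 KO 6, 7 without ERK1 KO 5 or double KO 6). Against the ERK2 KO it gave 3 to 13 with 21 libraries (3 without ERK2 KO 2 or double KO 4; 4 without any 1 of ERK2 KO 3, 4 and 6 and double KO 3, 5 and 6; 13 without ERK2 KO 7) and 6 to 17 with 16 (6 without ERK2 KO 2, 7 without ERK2 KO 6, 8 without any 1 of ERK1 KO 4, ERK2 KO 3 and double KO 6). The calls over all genes shifted too. Against the ERK1 KO with 21 libraries they went from 3402 to 5146 without ERK1 KO 1. Without ERK1 KO 4, 5 or 6 they were 2211, 2367 and 2609. Between the single knockouts, leaving out 1 library gave 0 members throughout.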
